A study of Mus musculus with 6 samples.

Results

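The genes described here are 10 members of the TALE homeobox family: Meis1, Meis2, Meis3, Pbx2, Pbx3, Pbx4, Pknox1, Pknox2, Tgif1 and Tgif2. They were chosen by name, and all 10 had a probe set whose platform annotation gave that symbol alone, among 22180 genes so represented. Each of the 10 had 1 such probe set, which leaves no second measurement of a gene to compare it with. A further probe set annotated to Tgif2 together with another gene was left out. The RNA came from mouse LT-HSC (long-term haematopoietic stem cells), bone marrow cells able to rebuild every blood lineage, which were sorted 4 months after a bone marrow transplant in strain C57/BL6. In the control group, 3 arrays each held RNA from a pool of control animals. In the NPMc+ group, 3 arrays each held RNA from a pool of animals that express NPMc+, a mutant nucleophosmin located in the cytoplasm. All animals of both groups had thus been through a transplant. The age of the animals, the number in a pool, the promoter that drives NPMc+ and the treatment of the controls were not stated in the sources used.

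TALE homeodomain proteins carry an extra loop of amino acids in their DNA-binding domain. Meis and Pknox (also called Prep) proteins bind DNA as partners of Pbx proteins, and the resulting complexes join Hox proteins on DNA and sharpen their choice of sites. Meis proteins also help keep Pbx proteins in the nucleus. Tgif proteins recognise a DNA core much like that of Meis proteins but act as repressors, in part through Smad proteins of the TGF-beta pathway. In blood, Meis1 is needed for the upkeep of stem cells and is often expressed together with Hoxa9 in acute myeloid leukaemia, including leukaemia with mutant nucleophosmin, and Pbx3 is a frequent partner of both.

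The deposited values are on a log2 scale, so 1 unit is a 2-fold difference. Same-numbered arrays of the groups were tied: a gene's mean over control and NPMc+ was the same in pairs 1, 2 and 3 within 0.001 log2 units for 100% of the probe sets. An effect of the replicate number had therefore been taken out before deposit. For each gene the control values mirror the NPMc+ values around 1 mean, both groups have the same SD, and the groups do not overlap exactly where the difference has 1 sign in 3 of 3 pairs. The independent spread is that of the 3 differences within pairs. An exact sign-flip permutation test over 3 pairs cannot give a two-sided p under 0.25, so the tests come from limma fitted over all 16635 genes above the filter, with the pair as a block. In that fit 0 genes of 16635, or 0%, passed an adjusted p of 0.05, and 8.97% had an unadjusted p under 0.05, 5.95% higher in NPMc+ and 3.02% lower.

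Of the LT-HSC markers, 12 of 14 had a probe set and 0 of these lay under the filter. The same held for every other marker list, so passing the filter does not tell cell types apart. The group means in control and NPMc+ were 8.94 and 9.37 log2 units for Kit, the stem cell factor receptor, and 5.33 and 5.41 for Procr, which marks primitive cells. The other LT-HSC markers ranged from bright ones, such as Angpt1 at 9.05 and 10.02, to dimmer ones. Fgd5 stood at 4.05 and 3.85, Tek at 4.05 and 4.07, and Esam at 4.04 and 4.30, near the middle of all genes. Some markers of other cells were bright in both groups, such as the neutrophil gene S100a8 at 12.6 and 12.2. The neutrophil genes Mmp8, at 10.82 and 9.02, and Retnlg, at 10.64 and 8.97, were brighter than Kit in control. The T and NK cell markers were spread widely. The NK cell gene Ncr1 at 3.25 and 3.04 and the T cell gene Cd4 at 3.68 and 3.41 were dim. In the same list Cd3d stood at 6.35 and 4.87, Cd2 at 6.62 and 5.13, and Nkg7 at 9.77 and 10.25. In these bulk samples, fewer cells of a type and less RNA per cell cannot be told apart. Npm1 had means of 11.76 and 11.57, and since it is not known whether the probe set reads the mutant, this does not check the labels. Xist, transcribed from the inactive X chromosome, differed by -5.44, -5.39 and 0.48 log2 units in pairs 1, 2 and 3 (NPMc+ minus control), and the Y-linked genes differed as well. Eif2s3y differed by 5.49, 0.36 and -0.79, Uty by 4.68, 0.93 and 0.35, and Kdm5d by 3.48, 1.29 and -0.67, so the Y-linked genes differed most in pair 1 while Xist differed in pairs 1 and 2.

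Among the Meis genes, Meis1 was higher in NPMc+ in every pair. Its control values were 7.95, 8.26 and 7.78 log2 units in replicates 1, 2 and 3, and its NPMc+ values 8.91, 8.59 and 9.07. The groups did not overlap, and the lowest NPMc+ array stood above the highest control array by the 0.33 units that separate the arrays of pair 2. The differences within pairs were 0.96, 0.33 and 1.29, or 1.95-fold, 1.26-fold and 2.44-fold. The mean difference was 0.86 ± 0.23 log2 units (SE, 3 pairs), a 1.81-fold higher signal with a 95% interval of 1.23-fold to 2.67-fold. The unadjusted p in limma was 0.00874 and the adjusted p 0.411, with 350 genes at a smaller p. The difference exceeded that of 98.7% of all genes tested, yet after adjustment over all genes it did not pass. By pair it stood at percentile 98.6, 71.1 and 98.5 of all differences in that pair. Without pair 1, 2 or 3 the difference was 0.81, 1.13 or 0.65 and the unadjusted p in limma 0.0484, 0.00280 or 0.0477. The limma fit without the block gave an adjusted p of 0.0492, but that fit counts degrees of freedom that the tied values do not hold.

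**Figure D1:**
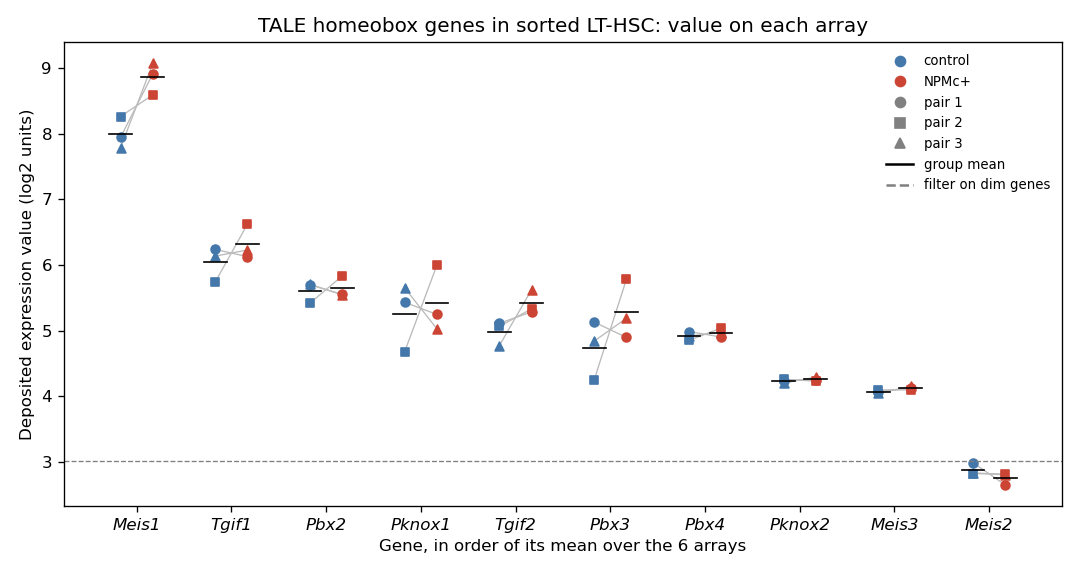
Deposited log2 value of each of the 10 TALE genes on each of the 6 arrays, control in blue and NPMc+ in red, with a marker shape per pair, grey lines joining the arrays of a pair and black bars for group means. Meis1 lies at 7.78 to 8.26 in control and 8.59 to 9.07 in NPMc+, and Meis2 lies under the dashed line of the filter at 3.01.

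Meis2 and Meis3 had low signals that hardly differed between the groups. Meis2, which acts in development of limbs, heart and nervous system, had control values of 2.99, 2.82 and 2.84 and NPMc+ values of 2.65, 2.82 and 2.80, all under the filter of 3.01 log2 units. Meis2 was therefore not tested with the other genes. Its pair differences were -0.34, -0.007 and -0.03, so its groups did not overlap and NPMc+ was lower. In the limma fit without a filter the mean difference was -0.13 ± 0.17 (SE, unadjusted p 0.477). Meis3, a less studied relative, had control values of 4.07, 4.10 and 4.05 and NPMc+ values of 4.13, 4.10 and 4.15. Although its groups did not overlap, the difference was 0.05 ± 0.17 (SE; 95% interval -0.36 to 0.47; unadjusted p 0.763 in limma). The SD of its 3 pair differences, 0.052, was among the lowest 2.03% of all genes tested. Signals of unlike probe sets do not measure amounts of RNA against each other, so the higher signal of Meis1 is not a measure of its share among Meis transcripts.

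Meis1 was the 1 member at an unadjusted p under 0.05, and Meis2, its close relative, was the 1 member whose signal lay under the filter on dim genes. Their proximal promoters are therefore shown, as the 250 bases before a RefSeq transcript start in GRCm38.p6, 5′ to 3′ on the strand of the gene. The Meis1 stretch lies at chr11:19018970-19019219 and the Meis2 stretch at chr2:116064620-116064869, both on the minus strand. The capitals mark a match to CCGGAAGT, a core bound by ETS family factors, read here on the opposite strand.
Meis1: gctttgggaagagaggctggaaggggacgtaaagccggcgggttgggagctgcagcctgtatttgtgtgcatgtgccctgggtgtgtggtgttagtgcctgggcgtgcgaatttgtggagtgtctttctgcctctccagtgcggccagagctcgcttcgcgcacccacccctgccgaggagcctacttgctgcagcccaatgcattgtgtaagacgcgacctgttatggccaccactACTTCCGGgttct
Meis2: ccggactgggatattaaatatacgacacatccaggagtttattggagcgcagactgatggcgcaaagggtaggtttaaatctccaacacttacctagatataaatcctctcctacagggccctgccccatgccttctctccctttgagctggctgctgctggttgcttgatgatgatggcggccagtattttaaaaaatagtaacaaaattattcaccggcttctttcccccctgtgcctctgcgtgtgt
The Meis1 stretch had a GC content of 59.6% with 13 CpG dinucleotides, and the Meis2 stretch 47.6% with 7. The median over 32851 such windows was 52.4% and 6. Windows were found for 7 of the 10 genes, 11 windows in all, 5 of them for Tgif1. Motifs were searched on both strands. TGACAG, the core recognised by Meis and Tgif proteins, was in 0 of the 11 windows and in 15.9% of all windows. TGATTNAT, a composite Pbx and Hox site, was in 1 window, of Tgif1, and in 2.82% of all. CCGGAAGT was added after the Meis1 stretch had been seen. It began 13 bases before the start in Meis1 and 19 bases before it in Meis3, and was present in 2.88% of all windows. The motifs do not overlap each other in these windows. These matches describe the letters of the windows, and no binding was measured.

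The Pbx genes did not pass either threshold, and Pbx3 was the most variable of them. Pbx3 had control values of 5.13, 4.25 and 4.84 and NPMc+ values of 4.90, 5.78 and 5.19. The groups overlapped, because pair 1 differed by -0.23 while pairs 2 and 3 differed by 1.53 and 0.35. In pair 2 alone, Pbx3 was 2.89-fold higher, above 98.8% of genes. The mean difference of Pbx3 was 0.55 ± 0.34 (SE; 95% interval -0.26 to 1.35), with an unadjusted p of 0.149 and an adjusted p of 0.697 in limma. Without pair 1 the difference of Pbx3 was 0.94 with an unadjusted p of 0.0403 in limma, and without pair 2 it was 0.06. Whether Pbx3 met the unadjusted threshold thus depended on pair 1, and most of the size of its difference on pair 2.

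Pbx2, a broadly expressed Pbx protein, had control values of 5.70, 5.42 and 5.71 and NPMc+ values of 5.55, 5.83 and 5.55. Its pair differences were -0.15, 0.41 and -0.16. The mean of 0.04 ± 0.20 (SE; 95% interval -0.45 to 0.52) turned to -0.04 after quantile normalization and to -0.15 without pair 2, so it has no settled direction. Pbx4, known mainly from the testis, had control values of 4.99, 4.85 and 4.92 and NPMc+ values of 4.90, 5.04 and 4.97. The difference was 0.05 ± 0.18 (SE; 95% interval -0.38 to 0.48), and it was -0.02 without pair 2. The upper ends of these intervals are 1.44-fold for Pbx2 and 1.40-fold for Pbx4.

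Of the Pknox genes, Pknox1 varied widely between pairs and Pknox2 hardly at all. Pknox1, a partner of Pbx proteins in most tissues, had control values of 5.43, 4.68 and 5.65 and NPMc+ values of 5.25, 6.0 and 5.03. The difference changed sign between pairs: -0.18 in pair 1, 1.32 in pair 2 and -0.62 in pair 3. Its mean was 0.17 ± 0.37 (SE; 95% interval -0.71 to 1.05; unadjusted p 0.659 in limma), and without pair 2 it was -0.40. The SD of its pair differences, 1.02, exceeded that of 97.2% of all genes tested. Pknox2, expressed mainly in nervous tissue and muscle, had control values of 4.24, 4.26 and 4.20 and NPMc+ values of 4.26, 4.23 and 4.29. The difference of Pknox2 was 0.03 ± 0.17 (SE; 95% interval -0.39 to 0.44), with an SD of the pair differences, 0.058, that was among the lowest 2.58%. Without pair 3 it was -0.01.

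**Figure D2:**
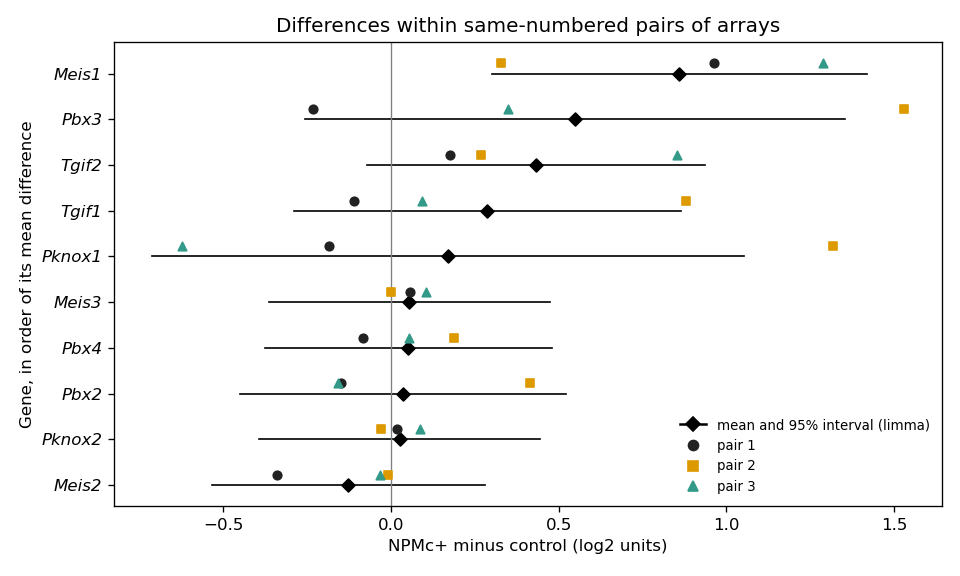
NPMc+ minus control for each TALE gene in log2 units: coloured points are the 3 pairs, black diamonds the mean and black lines the 95% interval from limma (for Meis2, from the fit without a filter). The interval of Meis1, 0.30 to 1.42, is the 1 that does not reach 0, and pair 2 stands apart for Pbx3 (1.53), Pknox1 (1.32) and Tgif1 (0.88).

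Of the Tgif repressors, Tgif2 had non-overlapping groups and Tgif1 did not. Tgif2 had control values of 5.11, 5.07 and 4.77 and NPMc+ values of 5.29, 5.33 and 5.63, with differences of 0.18, 0.27 and 0.85 in pairs 1, 2 and 3. The mean was 0.43 ± 0.21 (SE; 95% interval -0.07 to 0.93), or 1.35-fold, with an unadjusted p of 0.0807 and an adjusted p of 0.619 in limma. Without pair 3 the difference of Tgif2 was 0.22. Tgif1 had control values of 6.24, 5.74 and 6.14 and NPMc+ values of 6.13, 6.62 and 6.23. Its pair differences were -0.11, 0.88 and 0.09, and the mean was 0.29 ± 0.24 (SE; 95% interval -0.29 to 0.87; unadjusted p 0.274 in limma). Without pair 2 the difference of Tgif1 was -0.01.

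Of the 10 genes, 9 passed the filter, and 1 of these 9, Meis1, was higher at an unadjusted p under 0.05 while 0 were lower. That compares with 5.95% and 3.02% of all genes tested. Groups that did not overlap, with NPMc+ higher, were found for 3 of the 9, Meis1, Meis3 and Tgif2, beside 17.4% of all genes tested. With NPMc+ lower they were found for 0 of the 9, beside 12.8%. Meis2, the member left out by the filter, was lower in 3 of 3 pairs, with a mean difference of -0.13. The mean difference was above 0 for all 9, beside 54.9% of all genes, but the sign turned without 1 of the pairs for Pbx2, Pbx4, Pknox1, Pknox2 and Tgif1, and for Pbx2 also after quantile normalization. The median difference of the 9 was 0.17 log2 units, and that of all genes tested 0.03. By pair, the median of the 9 was -0.084, 0.33 and 0.093 in pairs 1, 2 and 3. Differences above 0 were found for 4, 8 and 7 of the 9 in these pairs, beside 50.4%, 54.5% and 53% of all genes tested. The TALE median was 0.35 without pair 1, 0.052 without pair 2, 0.11 after quantile normalization and 0.11 with Meis2 included by dropping the filter. Over all 10 genes, the highest of the 3 pair differences lay in pair 2 for 6 genes (Meis2, Pbx2, Pbx3, Pbx4, Pknox1 and Tgif1), in pair 3 for 4 genes (Meis1, Meis3, Pknox2 and Tgif2) and in pair 1 for 0. Of all genes tested, 37.9%, 33.9% and 28.2% had their highest difference in pairs 2, 3 and 1.

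**Figure D3:**
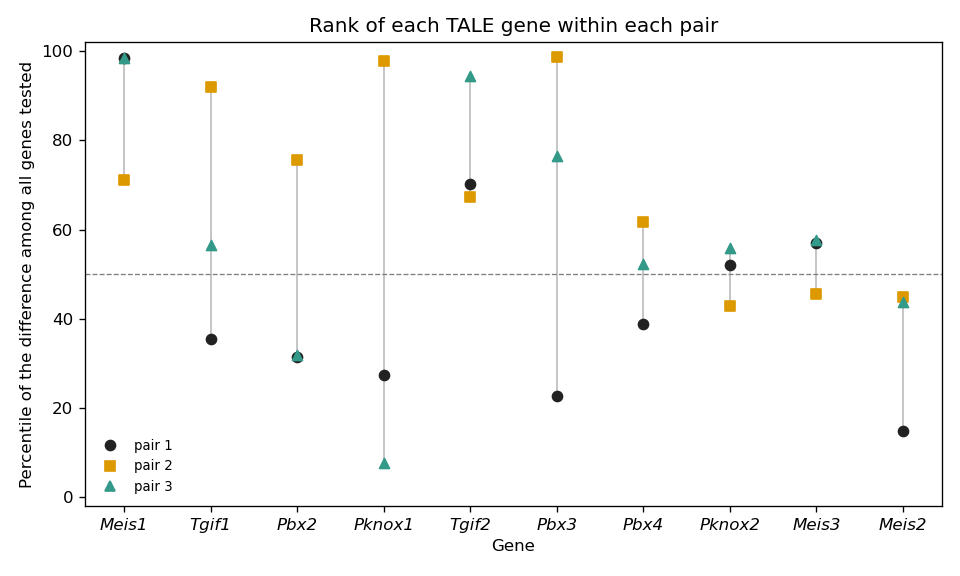
Percentile of each TALE gene's difference among the differences of all 16635 genes tested, for pairs 1, 2 and 3, with the dashed line at 50. Meis1 stands at 98.6, 71.1 and 98.5, while Pknox1 runs from 7.69 in pair 3 to 97.7 in pair 2.

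Several genes had a profile over the 3 pairs close to that of Meis1. By Euclidean distance over the 3 pair differences, the nearest of 14708 candidate genes were Luzp1 (distance 0.162), Csgalnact1 (0.169), Tas2r135 (0.199), Rab38 (0.201) and Tmem181c-ps (0.223), against a median distance of 1.70 over all candidates. Luzp1 differed by 0.96, 0.37 and 1.13 in pairs 1, 2 and 3, and Csgalnact1, an enzyme of chondroitin sulfate synthesis, by 1.11, 0.26 and 1.35. Rab38, a small GTPase of membrane traffic, differed by 0.99, 0.45 and 1.13. With 3 values a gene, such likeness is a description only.

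Hox genes, whose proteins bind DNA beside Pbx and Meis proteins, included several with larger differences than Meis1. Of 19 listed Hoxa and Hoxb genes, 17 had a probe set and 16 were tested, with a median of 0.38 log2 units. Of the 16, 7 were higher and 0 lower (limma, unadjusted p under 0.05), beside 5.95% and 3.02% of all genes tested. The 4 of smallest p were Hoxa5 (2.51-fold higher), Hoxa6 (2.44-fold), Hoxa7 (1.95-fold) and Hoxa2 (2.20-fold), with adjusted p-values of 0.266 to 0.340 in limma. Hoxa9, the partner of Meis1 in leukaemia, differed by 1.42, 1.36 and 0.39 in pairs 1, 2 and 3, while Meis1 differed by 0.96, 0.33 and 1.29. Pair 3 was thus the lowest for Hoxa9 and the highest for Meis1. The difference between the Hox and TALE lists was not tested.

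Of the other TALE genes, 7 Iroquois and Mkx genes had a probe set and 6 were tested. None of the 6 had an unadjusted p under 0.05 in limma in either direction (0 of 6), beside 5.95% of all genes tested higher and 3.02% lower. Their median was -0.12. It was -0.19 without pair 1, -0.028 without pair 3 and -0.060 with no filter or with the filter at the 50th percentile. Irx3, a developmental regulator, had the lowest difference at -0.30 ± 0.18 (SE) and was lower in 3 of 3 pairs.

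Among genes of Tgif partners and the Smad pathway, 13 of 14 were tested, with a median of 0.21. Of the 13, 2 were higher and 0 lower by the same limma threshold, beside 5.95% and 3.02% of all genes tested. Smad3, a TGF-beta signal transducer that Tgif proteins restrain, was 1.93-fold higher (0.95 ± 0.25 log2 units, SE; adjusted p 0.410), with pair differences of 0.67, 1.58 and 0.59. The receptor gene Tgfbr2 was 1.58-fold higher (0.66 ± 0.22; adjusted p 0.471). The corepressor genes Sin3a and Ctbp2 differed by 0.38 each, with unadjusted p-values of 0.0671 and 0.0661. Hdac1 and Hdac2, the histone deacetylases of such complexes, differed by 0.13 and -0.06.

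Of 21 genes described as regulated by Meis1 or Hoxa9 in blood cells, 20 were tested, with a median of 0.31. By that limma threshold 6 were higher and 1 lower, beside 5.95% and 3.02% of all genes tested. The gene left out by the filter, Epas1, was lower in each pair (-0.42, -0.68 and -0.23). The list sets no direction of regulation, so a higher value is not a measure of target activation. Erg, a transcription factor of stem cells, was 1.86-fold higher (pairs 0.90, 1.2 and 0.60), and Mecom, another such factor, was 2.51-fold higher (pairs 0.41, 1.73 and 1.85). Sox4, also a transcription factor, was 1.67-fold higher (pairs 0.89, 0.51 and 0.83), and the cytokine receptor gene Flt3 was 1.89-fold higher (pairs 0.65, 0.59 and 1.52). Id2, an inhibitor of E-protein transcription factors, was 2.12-fold lower (pairs -0.89, -1.39 and -0.96). The adjusted p-values of these 5 genes were 0.296 to 0.410 in limma. Trib2 differed by -0.48 ± 0.31 (SE), Hif1a by -0.29 ± 0.21 and Syk by 0.30 ± 0.19, and Pbxip1, whose product binds Pbx proteins, by -0.06 ± 0.18. The list thus had members on both sides of 0, and some of them, such as Erg and Mecom, are known as stem cell genes in their own right.

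**Figure D4:**
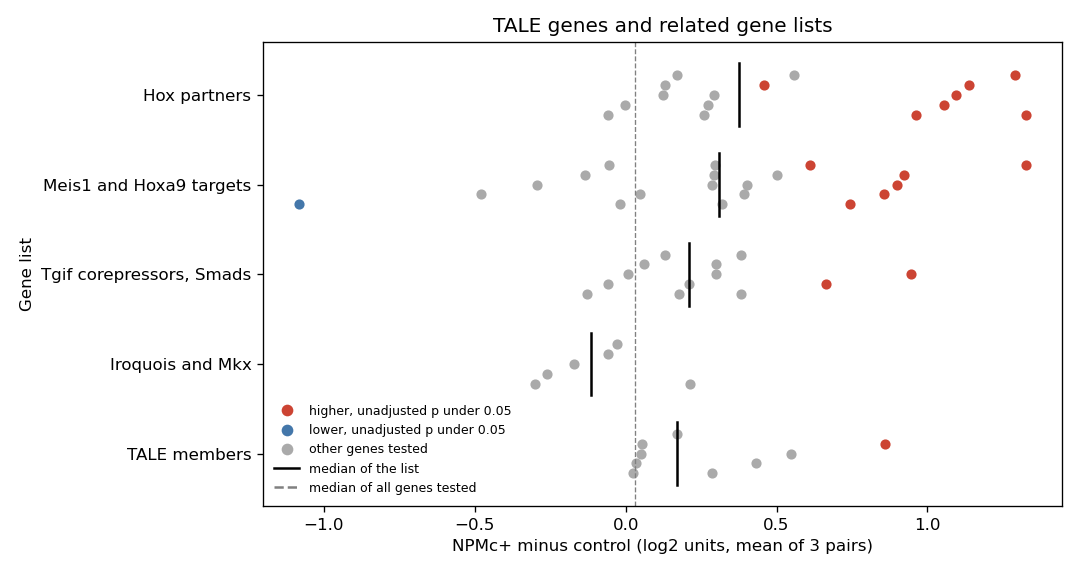
NPMc+ minus control in log2 units for each tested gene of the TALE list and 4 related lists, red or blue at an unadjusted p under 0.05, with black bars for list medians and a dashed line for the median of all genes tested, 0.03. The medians are 0.17 for TALE members, -0.12 for Iroquois and Mkx genes, 0.21 for Tgif partners and Smads, 0.31 for Meis1 and Hoxa9 targets and 0.38 for Hox partners.

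The summed signal of the 12 LT-HSC markers was 10.42 to 10.55 log2 units in control and 11.05 to 11.23 in NPMc+, higher by 0.80, 0.50 and 0.70 in pairs 1, 2 and 3. In limma, 4 of the 12 passed as higher (unadjusted p under 0.05) and 0 as lower, beside 5.95% and 3.02% of all genes tested. The 4 were Angpt1 (1.96-fold), Gata2 (2.05-fold), Ctnnal1 (1.46-fold) and Kit (1.35-fold). Also, 4 of the 12 were higher in 3 of 3 pairs, beside 17.4% of all genes tested. Fgd5 and Robo4 differed by -0.20 and -0.22 and Procr and Tek by 0.08 and 0.03. Megakaryocyte markers had 7 of 8 higher, among them Itga2b (2.51-fold) and Selp (1.73-fold), and their summed signal was 8.67 to 9.12 in control and 9.77 to 10.23 in NPMc+.

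Of the lineages that a stem cell sort should leave out, markers of B cells, erythroid cells, and neutrophils and monocytes were mostly lower in NPMc+. The T and NK cell markers were mixed, and the megakaryocyte markers given above were mostly higher. Of 9 B cell markers 7 were lower at an unadjusted p under 0.05 in limma, with a summed signal of 9.21 to 9.33 in control and 8.01 to 8.19 in NPMc+; Ms4a1 was 4.13-fold lower. Of 7 erythroid markers 5 were lower, with sums of 9.66 to 9.91 and 8.86 to 9.11, and Ermap was 2.54-fold lower. Of 13 neutrophil and monocyte markers 9 were lower, Ly6g by 4.40-fold, and the sums were 14.06 to 14.63 and 13.52 to 14.02. Of 10 T and NK cell markers 3 were lower and 1, Nkg7, higher, with sums of 10.17 to 10.41 and 10.32 to 10.51. Beside these counts, 3.02% of all genes tested were lower and 5.95% higher by the same threshold. None of the markers with a probe set lay under the filter (0 in each of the 6 lists). The neutrophil and monocyte sum differed by -0.90, -1.11 and -0.04 in pairs 1, 2 and 3. The B cell sum differed by -1.29, -1.02 and -1.32, and the erythroid sum by -1.04, -0.54 and -0.98. The T and NK cell sum differed by 0.33, 0.34 and -0.09, and the megakaryocyte sum by 0.92, 0.65 and 1.56. Meis1 differed by 0.96, 0.33 and 1.29 in the same pairs. The LT-HSC sum was higher in 3 of 3 pairs, with the smallest difference in pair 2, but the sum is weighted to the brightest markers. The median difference of the tested LT-HSC markers was 0.23, 0.35 and 0.52 in pairs 1, 2 and 3, with the smallest in pair 1. The part of these markers, and of the sex-linked RNA, in the differences of Meis1 and the other TALE genes was not tested.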

How the data were processed

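Gene expression was measured on 6 microarrays, 3 control and 3 NPMc+, grouped and numbered by sample title. Biotin-labelled cDNA was made from about 5 ng of total RNA, per the labels' protocols. The table the authors deposited holds log2 values for 41345 probe sets. RMA is named in the submitters' processing notes; its version and any later step were not stated in the sources used. Same-numbered arrays are tied in the deposited log2 values: their deviations from the group means correlate at -1 in each of the 3 pairs, and at most 0.343% of probe sets met the tolerance of 0.001 under the 5 other pairings.

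Gene names came from the platform annotation: 23521 probe sets had 1 symbol, 1814 several and 16010 none. Of the symbols, 23328 were looked up by gene identifier in a RefSeq table of GRCm38.p6 and 0 changed. A gene was represented by its probe set of highest mean, and genes with a mean under the 25th percentile (3.01 log2 units) were left out. Differences are NPMc+ minus control by two-sided limma (version 3.58.1, lmFit and eBayes, R 4.3.3) with the replicate number as a block, 2 residual and 4.537 prior degrees of freedom, and Benjamini-Hochberg adjustment over 16635 genes. The median SE was 0.20 log2 units, and a gene with that SE reached an unadjusted p of 0.05 in limma at a 1.40-fold difference. Among the members tested the SE ran from 0.17 (Meis3) to 0.37 (Pknox1), so this size differs by gene. The number of arrays limits the precision. The fit was checked on 20 simulated sets of 16635 genes: 4.92% of unchanged genes had p under 0.05 with the block and 20.0% without it, and 98.7% of genes changed 2-fold were found at that threshold with the block.

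The members, the 4 related lists and the 6 marker lists were chosen with earlier results of these data known. Named genes are all members, at most 4 genes a direction of each list at an unadjusted p under 0.05, and the 5 genes nearest to a member at that threshold; Hoxa9, Irx3, Procr, S100a8, Ncr1, Cd4, the sex-linked genes and the genes given without a p under 0.05 were chosen after their values were seen. Alternatives were the fit without the block, no filter or a filter at the 50th percentile, quantile normalization, an intensity trend, the mean of probe sets, and leaving out each pair. Promoter windows are from RefSeq, and figures were drawn with matplotlib 3.10.9.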

Additional observations from a re-analysis of the deposited data

How the results depend on the processing

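Meis1 kept its direction and an unadjusted p under 0.05 in limma in the 9 alternatives run, with differences of 0.65 to 1.13 log2 units and unadjusted p-values of 0.00244 to 0.0484; its adjusted p ranged from 0.0492, without the replicate block, to 0.653. Without the replicate block, 828 genes passed the adjusted threshold against 0 with it, and the unadjusted threshold was passed by 2500 higher and 1638 lower genes against 989 and 503. In that fit Tgif2, at 0.43, had an unadjusted p of 0.0194, so that 2 TALE genes were called against 1; 1 Iroquois gene was lower, 5 Tgif partner and Smad genes and 13 Meis1 and Hoxa9 targets were higher. The block changes the pairing's degrees of freedom, not the differences. Without a filter, 4 Tgif partner and Smad genes were higher and 2 targets lower; with the filter at the 50th percentile the Hox median was 1.09. After quantile normalization the Pbx2 difference was -0.038 and the Tgif partner median 0.17. Leaving out each pair gave ranges of 0.057 to 0.94 for Pbx3, -0.15 to 0.13 for Pbx2, -0.015 to 0.12 for Pbx4, -0.40 to 0.57 for Pknox1, -0.0057 to 0.052 for Pknox2 and -0.0090 to 0.49 for Tgif1. It gave 1 to 2 TALE genes called, 1 to 2 Tgif partner genes higher, 1 to 2 targets lower, 0 to 24 genes past the adjusted threshold, and medians of 0.052 to 0.35 for TALE genes, -0.19 to -0.028 for Iroquois and Mkx genes, 0.39 to 0.54 for Hox genes and 0.13 to 0.35 for Tgif partners. Meis2 could be tested only without a filter. Where fewer or more genes or samples enter a fit, that is its construction; otherwise the cause was not tested.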
